A study of Mus musculus with 10 samples.

Results

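ER chaperones and unfolded protein response genes were followed in splenic type 2 conventional dendritic cells (cDC2), the dendritic cells that present antigen mainly to CD4 T cells. The 36 genes were a fixed list of symbols, and each was read from 1 probe set, the one with the highest mean log2 intensity over all arrays. All 36 were measured, of 19938 genes with a symbol of their own. The study asked how cDC2 that lack the receptor Notch2 differ from wild-type cDC2, and how each responds to immunization with sheep erythrocytes (SRBC), a cell-borne antigen. After enzymatic digestion of the spleen (Collagenase B, DNAse 1) and enrichment of CD11c+ cells, cDC2 were sorted, and their RNA was read on 10 one-colour GeneChip arrays. WT mice, untreated, gave 2 arrays, and WT mice 24 hours after 200000000 SRBC given intraperitoneally gave 3. Mice with CD11c-Cre and floxed Notch2 alleles (CD11c-Cre Notch2f/f, titled Notch2-11cKO) gave 2 arrays untreated and 3 at 24 hours after the same dose of SRBC. The CD11c promoter drives this Cre, so Notch2 is targeted in all cells with enough CD11c promoter activity and not in cDC2 alone. The labels give no ages, and they do not say whether the WT mice carried Cre or floxed alleles. Whether each replicate was a mouse of its own is not stated in the labels, so p-values measure only the spread between these arrays, which may be technical.

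Secreted and membrane proteins enter the endoplasmic reticulum (ER) through the Sec61 channel and fold there with the help of the Hsp70-type chaperone BiP (Hspa5), its J-domain cofactors, the lectin chaperones calnexin and calreticulin, and protein disulfide isomerases. When folding falls behind demand, IRE1 (Ern1) splices the mRNA of the transcription factor XBP1, PERK (Eif2ak3) phosphorylates eIF2α and so slows translation while ATF4 and then CHOP (Ddit3) are made, and ATF6 is cut to free a transcription factor. XBP1 and ATF6 raise chaperone and degradation genes, and ATF4 raises amino acid supply and redox genes. In dendritic cells the branch of IRE1 and XBP1 is known to be active without an added stressor. A gene-level array reads neither the splicing of Xbp1 nor the activity of the sensor proteins, so the values below are transcript signals only.

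The chaperone genes are known for short promoter elements that ATF6 and XBP1 use. These are shown as a description that does not rest on probe signals, although it follows the roles of the genes in part. Atf6, Hyou1, Manf, Sec61a1 and Derl1 had no entry among the RefSeq promoter windows (mouse build GRCm38.p6). Windows from 250 bases before to 50 bases after a listed start were matched by symbol for 31 of the 36 genes. They were searched on both strands for the ER stress element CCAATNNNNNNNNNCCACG (ERSE), for ERSE-II, ATTGGNCCACG, for the unfolded protein response element TGACGTGG (UPRE) and for the amino acid response element TTGCATCA (CARE), with exact matches only. No match overlapped another. Capitals mark the fixed letters of each match, which is written 5′ to 3′ in the direction of the element.
Hspa5, chr2:34772025-34772043, plus strand: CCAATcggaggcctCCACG
Hsp90b1, chr10:86705638-86705656, minus strand: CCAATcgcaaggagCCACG
Hsp90b1, chr10:86705533-86705551, plus strand: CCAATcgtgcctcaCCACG
Canx, chr11:50325800-50325818, minus strand: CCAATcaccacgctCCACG
Calr, chr8:84847075-84847093, plus strand: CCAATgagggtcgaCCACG
Creld2, chr15:88819520-88819538, minus strand: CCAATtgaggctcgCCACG
Pdia6, chr12:17266491-17266509, plus strand: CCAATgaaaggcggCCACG
Dnajc3, chr14:118937827-118937845, plus strand: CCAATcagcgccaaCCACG
Syvn1, chr19:6046532-6046550, plus strand: CCAATcggcggtagCCACG
Derl3, chr10:75893242-75893260, minus strand: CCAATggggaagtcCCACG
Herpud1, chr8:94386377-94386387, plus strand: ATTGGgCCACG
Dnajb11, chr16:22857852-22857862, plus strand: ATTGGcCCACG

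An ERSE was found in 9 of the 31 genes (29%), against 37 of 27025 genes with a window (0.137%) and 1 of 128 other genes of the secretory and stress pathways (0.781%). Counting ERSE-II as well, 11 of 31 genes (35.5%) held an element, against 0.181% of all genes. The 36 genes were listed for this pathway, so these shares describe the list. By role, 5 of the 6 lumenal chaperones and cofactors with a window held an ERSE. None of the 2 sensors, the 3 transcription factors or the 4 outputs of the integrated stress response with a window held ERSE or ERSE-II. A UPRE was found only in Sec24d (1 of 31, against 0.714% of all genes) and a CARE in Herpud1 and Chac1 (2 of 31, against 1.03%). The Sec24d window (chr3:123267246-123267545) lay inside the span of the gene, which begins at 123264801. The Edem1 window also lay inside its gene. Hsp90b1, the ER-resident Hsp90, was the only window with 2 exact ERSE matches. Inexact copies of an element were not searched for, so a window without a match may still hold one. A match describes letters in these windows and was not tested as a binding site.

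**Figure D1:**
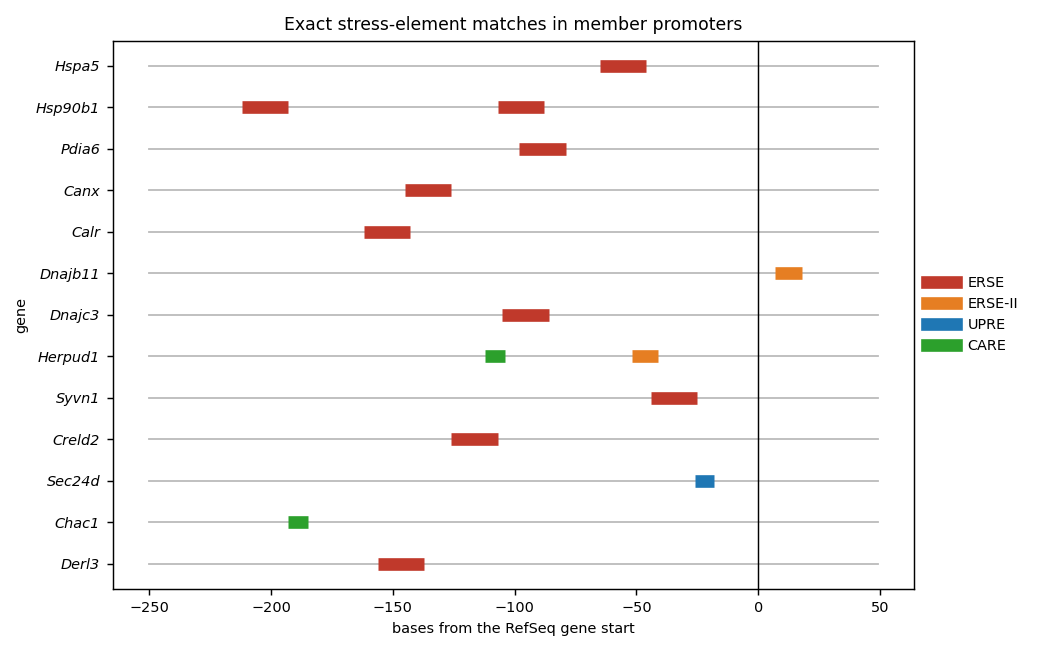
Positions of exact element matches in the 13 promoter windows that held any, with 1 line per gene and 1 colour per element. The horizontal axis is in bases from the RefSeq start used for each window, which for Sec24d lies inside the gene. The 10 ERSE matches lie upstream of the start, from position -212 in Hsp90b1 to position -44 in Syvn1, and the ERSE-II match of Dnajb11 lies at position 7.

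The 250 bases before the start are printed for 3 genes on which the results below turn: Hspa5, the main target of the pathway, Canx, which has an ERSE and differed by genotype, and Pdia4, which had the largest positive difference by genotype after SRBC and has no exact match. They are chr2:34771840-34772089 (plus strand), chr11:50325674-50325923 (minus strand) and chr6:47813513-47813762 (minus strand) of GRCm38.p6, and capitals again mark an element.
Hspa5: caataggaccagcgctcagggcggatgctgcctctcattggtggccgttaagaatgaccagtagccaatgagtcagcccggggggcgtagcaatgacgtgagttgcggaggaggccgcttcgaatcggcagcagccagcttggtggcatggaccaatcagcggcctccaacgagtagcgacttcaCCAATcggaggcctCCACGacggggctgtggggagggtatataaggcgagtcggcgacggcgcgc
Canx: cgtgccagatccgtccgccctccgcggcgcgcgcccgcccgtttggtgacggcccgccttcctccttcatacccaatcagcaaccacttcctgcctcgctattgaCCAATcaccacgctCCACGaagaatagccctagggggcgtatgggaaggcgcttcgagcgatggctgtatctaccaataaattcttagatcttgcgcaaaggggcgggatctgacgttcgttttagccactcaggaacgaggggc
Pdia4: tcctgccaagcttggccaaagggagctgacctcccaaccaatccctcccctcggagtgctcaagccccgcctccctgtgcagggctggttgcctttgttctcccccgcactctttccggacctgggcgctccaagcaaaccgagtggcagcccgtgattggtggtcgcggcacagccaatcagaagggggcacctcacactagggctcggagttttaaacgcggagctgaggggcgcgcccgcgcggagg

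Array medians lay between 29.5 and 31.7 intensity units, and precision is limited by how few arrays there were. WT SRBC 1 stood apart from the other WT SRBC arrays (Pearson r over all genes 0.971 with each, against 0.990 between those), and Notch2-11cKO SRBC 3 from its group (0.978 and 0.975, against 0.988). Where leaving out these arrays gained or lost a call, the value without them is given. The cDC2 genes Itgax, Sirpa and Flt3 were bright in all groups, and Clec4a4 and Esam, which mark the Notch2-dependent cDC2, were lower in untreated Notch2-11cKO (3.84 ± 0.15 against 7.92 ± 0.30, and 4.06 ± 0.10 against 5.90 ± 0.09, mean log2 ± SD, n = 2 and 2). The signal of Notch2 itself did not differ past the threshold (0.14 ± 0.26, adjusted p = 0.915), and 1 probe set over the gene does not check a deletion of unstated extent, whereas its target Hes1 was lower by -2.60 ± 0.26 on the log2 scale (adjusted p = 0.000143). Dtx1 was also planned as a check of the genotype, and its value is not given here. Of the full list of 12 cDC2 genes, 3 fell and 0 rose between untreated genotypes. Between genotypes after SRBC, 2 fell and 1 rose. In the SRBC response, 2 of the 12 fell in WT and 0 passed in Notch2-11cKO. The mean log2 level of the list was 9.31 to 9.35 in WT untreated and 8.58 to 8.69 in Notch2-11cKO untreated. After SRBC it was 8.77 to 8.87 in WT and 8.30 to 8.58 in Notch2-11cKO.

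Between genotypes, the isomerase Pdia4, the chaperone Canx and the translocon subunit Sec61b rose in Notch2-11cKO cDC2 under both conditions. After SRBC Hsp90b1, Pdia3 and Dnajc3 also rose, and the sensor Eif2ak3 fell. Values below are log2 differences ± the standard error of 1 limma fit of all 4 groups, Notch2-11cKO minus WT unless said otherwise, and p is limma's, adjusted by Benjamini-Hochberg over all 19938 genes with a threshold of 0.05. In untreated mice 3 of the 36 genes rose past the threshold, against 2.95% of all genes, and 0 fell, against 2.16%. After SRBC 6 rose, against 3.36% of all genes, and 1 fell, against 1.96%. At an unadjusted p under 0.05, 9 and 12 of the 36 differed, against 14.6% and 17.4% of all genes. The median difference was 0.16 untreated and 0.26 after SRBC, with 22 and 29 of the 36 above 0, while the median of all genes was -0.02 in each. Leaving out arrays moved these counts: without both arrays that stood apart they were 8 untreated (7 higher, 1 lower, with 1996 of all genes called) and 9 after SRBC (8 higher, 1 lower, with 2364), of which 6 were among the 7 above. The untreated count was 0 without WT untreated 1, Notch2-11cKO untreated 1 or Notch2-11cKO untreated 2 and 1 without WT untreated 2, and the count after SRBC was 2 without WT SRBC 2, WT SRBC 3 or Notch2-11cKO SRBC 1. With quantile normalization 2 rose and 1 fell untreated, with 979 of all genes called. Most of the 36 are bright: 32 lay above the median level of all genes, and among genes above that level 5.17% rose and 3.41% fell untreated, and 5.82% rose and 3.14% fell after SRBC.

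By array, every Notch2-11cKO array lay above every WT array for 14 of the 36 genes untreated (against 22.0% of all genes) and for 12 after SRBC (against 9.96%). Every Notch2-11cKO array lay below for 9 untreated (against 26.8%) and for 2 after SRBC (against 10.4%), Eif2ak3 and Dnajb9. The mean log2 intensity over the 36 probe sets was 7.63 and 7.85 in the WT untreated arrays and 7.89 and 7.95 in the Notch2-11cKO untreated arrays. It was 7.45, 7.52 and 7.51 after SRBC in WT and 7.86, 7.63 and 7.84 after SRBC in Notch2-11cKO. These are averages over sorted cells that mix subsets, so a larger share of cells rich in a transcript and more of it per cell cannot be told apart.

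**Figure D2:**
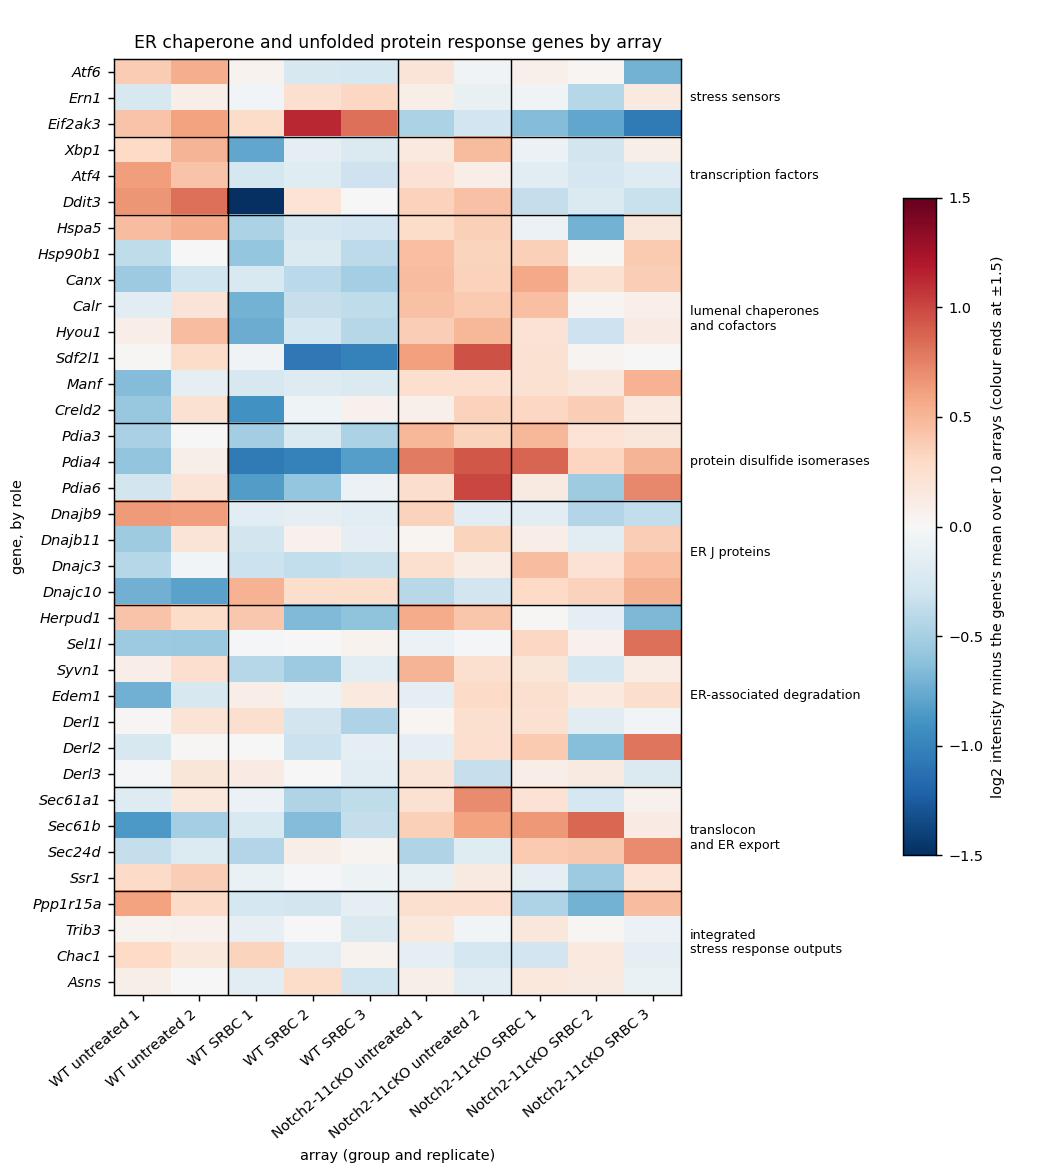
Heat map of the 36 genes (rows, ordered by role) over the 10 arrays (columns, by group and replicate), coloured by log2 intensity minus the gene's mean over the arrays. The isomerase Pdia4, Canx and Sec61b are red in all 5 Notch2-11cKO arrays, and Eif2ak3 is blue in them.

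Pdia4 encodes a disulfide isomerase that works with BiP. Pdia4 read 5.98 and 6.66 log2 units in untreated WT arrays and 5.50, 5.56 and 5.74 in WT arrays after SRBC. It read 7.35 and 7.50 in Notch2-11cKO untreated and 7.44, 6.89 and 7.08 in Notch2-11cKO SRBC arrays. Every Notch2-11cKO array was above every WT array. It rose by 1.11 ± 0.25 untreated (2.15-fold, adjusted p = 0.0274) and by 1.54 ± 0.21 after SRBC (2.90-fold, adjusted p = 0.00116). The difference after SRBC passed in all 20 alternative analyses. The untreated difference did not pass without WT untreated 1 (0.77, adjusted p = 0.28), Notch2-11cKO untreated 1 (1.18, adjusted p = 0.116) or Notch2-11cKO untreated 2 (1.03, adjusted p = 0.174). A second, dim probe set of Pdia4 (mean 4.39) differed by 0.08 untreated and -0.01 after SRBC, and averaging both probe sets gave 0.59 untreated (adjusted p = 0.103) and 0.76 after SRBC (adjusted p = 0.0115).

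Of the other isomerases, Pdia3, the partner of calnexin and calreticulin in glycoprotein folding and of tapasin in MHC class I loading, read 8.78 and 9.25 in untreated WT and 8.74, 9.05 and 8.78 in WT after SRBC. In Notch2-11cKO it read 9.76 and 9.60 untreated and 9.76, 9.47 and 9.44 after SRBC. The genotypes did not overlap under either condition. Pdia3 rose after SRBC (0.70 ± 0.18, 1.62-fold, adjusted p = 0.0452), and the untreated difference was 0.66 ± 0.22 (adjusted p = 0.138; 0.0486 without both arrays that stood apart). The call after SRBC was lost on leaving out any of 9 of the 10 arrays, all but Notch2-11cKO SRBC 3, with differences from 0.60 to 0.80 and adjusted p from 0.0537 to 0.167, and also with arrays centred on their medians (adjusted p = 0.0537) or only the compared groups in the fit (adjusted p = 0.102). Pdia6, which also acts on the sensor IRE1, differed by 0.67 ± 0.40 untreated and 0.60 ± 0.33 after SRBC (adjusted p = 0.53 and 0.383), with arrays that overlapped after SRBC.

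Among the 8 lumenal chaperones and cofactors, 1 rose untreated and 2 rose after SRBC, and none fell. All 8 differences after SRBC were above 0 (median 0.62), against 45.9% of all genes. The 7 genes of ER-associated degradation were all above 0 after SRBC as well. Canx, the membrane-bound lectin chaperone calnexin, read 8.82 and 9.07 in untreated WT and 9.13, 8.96 and 8.85 in WT after SRBC. It read 9.83 and 9.71 in Notch2-11cKO untreated and 9.93, 9.59 and 9.74 in Notch2-11cKO SRBC. All 5 Notch2-11cKO arrays were above all 5 WT arrays. Canx rose untreated (0.83 ± 0.19, 1.77-fold, adjusted p = 0.0315) and after SRBC (0.77 ± 0.16, 1.71-fold, adjusted p = 0.0159). The untreated difference did not pass without WT untreated 1, WT untreated 2, WT SRBC 2, Notch2-11cKO untreated 1 or Notch2-11cKO untreated 2 (0.70 to 0.95, adjusted p from 0.0533 to 0.28). The call after SRBC was lost without WT SRBC 2, WT SRBC 3 or Notch2-11cKO SRBC 1 (0.68 to 0.76, adjusted p from 0.0597 to 0.0746). It was also lost with only the compared groups in the fit.

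Hsp90b1 folds client receptors that include Toll-like receptors and integrins. Hsp90b1 read 10.12 and 10.50 in untreated WT arrays and 9.92, 10.29 and 10.10 in WT arrays after SRBC. In Notch2-11cKO arrays it read 10.95 and 10.83 untreated and 10.85, 10.52 and 10.89 after SRBC. The groups did not overlap, although the highest WT and the lowest Notch2-11cKO arrays came close. It rose after SRBC (0.65 ± 0.16, 1.57-fold, adjusted p = 0.0426), and the untreated difference was 0.58 ± 0.20 (adjusted p = 0.158; 0.0446 without both arrays that stood apart). The call was lost on leaving out any of 9 of the 10 arrays, all but Notch2-11cKO SRBC 2 (0.56 to 0.74, adjusted p from 0.0587 to 0.144), without both arrays that stood apart (0.49, adjusted p = 0.0807), with arrays centred on their medians (adjusted p = 0.0636) and with only the compared groups in the fit (adjusted p = 0.114).

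The remaining 6 of this group did not pass between genotypes. Calr, the soluble lectin chaperone calreticulin, differed by 0.66 ± 0.18 after SRBC (adjusted p = 0.0582) with no overlap between the groups, and passed without both arrays that stood apart (0.60, adjusted p = 0.0464). Sdf2l1, a lumenal cofactor of BiP, read 7.03 and 7.29 in WT untreated, 6.97, 5.95 and 6.0 in WT SRBC, 7.63 and 7.96 in Notch2-11cKO untreated, and 7.24, 7.06 and 7.02 in Notch2-11cKO SRBC. WT SRBC 1 lay about as high as the untreated WT arrays, and the other WT SRBC arrays were lowest of all 10. The difference of Sdf2l1 was 0.80 ± 0.25 after SRBC (adjusted p = 0.107), and without WT SRBC 1 it passed (1.13, adjusted p = 0.00293). Untreated it was 0.64 ± 0.31 (adjusted p = 0.386), and it passed without both arrays that stood apart, which enter only through the shared variance (adjusted p = 0.0445). Creld2, a secreted disulfide exchange protein, read 6.17 and 6.97 in WT untreated, 5.83, 6.68 and 6.80 in WT SRBC, 6.82 and 7.09 in Notch2-11cKO untreated, and 7.05, 7.11 and 6.89 in Notch2-11cKO SRBC. Its WT arrays spread widely, and its differences were 0.38 ± 0.33 and 0.58 ± 0.27 (adjusted p = 0.729 and 0.303). Manf, a secreted protein retained in the ER, differed by 0.65 ± 0.22 and 0.52 ± 0.18 (adjusted p = 0.146 and 0.135), and untreated it passed without both arrays that stood apart (adjusted p = 0.0488). Hyou1, a nucleotide exchange factor of BiP, differed by 0.15 ± 0.24 and 0.49 ± 0.19 (adjusted p = 0.891 and 0.205). Hspa5 itself differed by -0.18 ± 0.24 untreated and 0.13 ± 0.20 after SRBC (adjusted p = 0.859 and 0.813), with 95% intervals of -0.71 to 0.34 and -0.30 to 0.56.

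**Figure D3:**
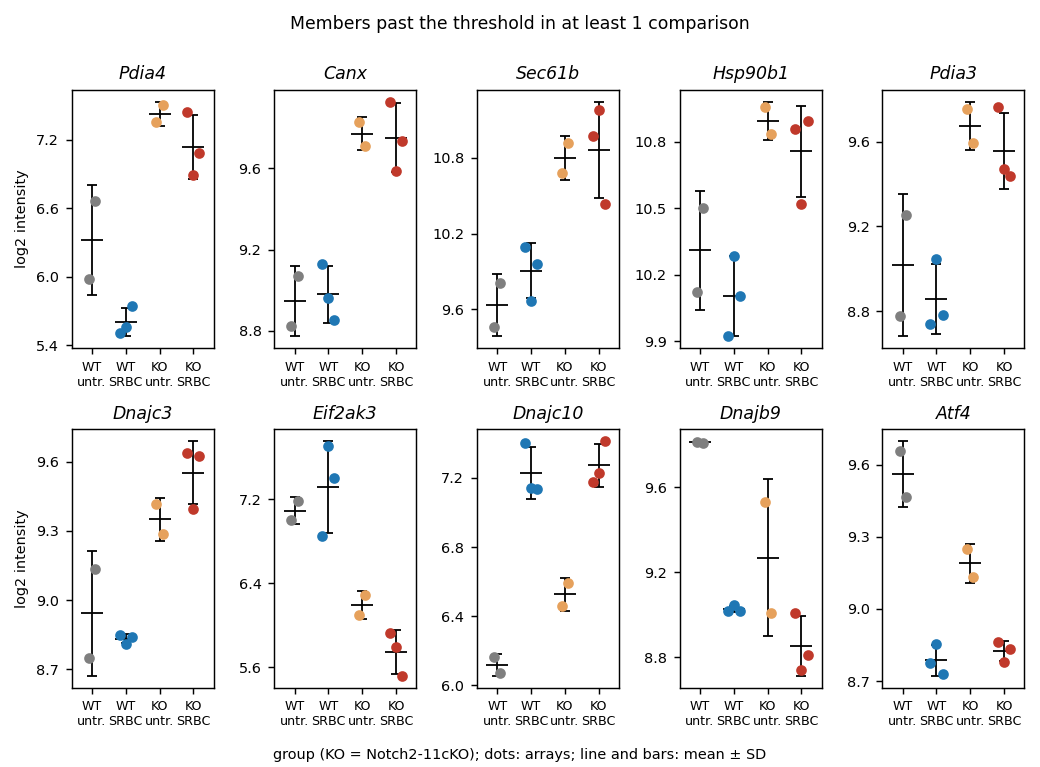
Log2 intensity by array for the 10 genes past the threshold in at least 1 comparison, with dots for arrays and a line and bars for mean ± SD (n = 2 untreated, n = 3 SRBC), each panel on its own axis that does not start at 0. Pdia4, Canx and Sec61b separate the genotypes under both conditions, and Dnajc10 separates untreated from SRBC arrays in both genotypes.

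The ER J proteins hand substrates to BiP. Dnajc3 read 8.75 and 9.13 in WT untreated, 8.85, 8.81 and 8.84 in WT SRBC, 9.42 and 9.28 in Notch2-11cKO untreated, and 9.64, 9.39 and 9.62 in Notch2-11cKO SRBC. Its WT SRBC arrays had an SD of 0.02, and every Notch2-11cKO array was above every WT array. Dnajc3 encodes a BiP cofactor that is also known as an inhibitor of PERK. It rose after SRBC (0.72 ± 0.16, 1.65-fold, adjusted p = 0.0218), while the untreated difference was 0.41 ± 0.19 (adjusted p = 0.367). The call was lost without WT SRBC 2, WT SRBC 3 or Notch2-11cKO SRBC 1 (0.68 to 0.72, adjusted p from 0.0674 to 0.0883). It was also lost with only the compared groups in the fit. Dnajb11 read 7.75 and 8.48 in WT untreated, 8.01, 8.34 and 8.14 in WT SRBC, 8.31 and 8.62 in Notch2-11cKO untreated, and 8.39, 8.12 and 8.65 in Notch2-11cKO SRBC. All 4 groups of this soluble cofactor overlapped, and its differences were 0.35 ± 0.27 and 0.22 ± 0.22 (adjusted p = 0.677 and 0.695). Dnajb9 and Dnajc10, which changed after SRBC, did not pass between genotypes (-0.54 ± 0.21 and 0.41 ± 0.19 untreated, adjusted p = 0.214 and 0.343).

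At the translocon and in export from the ER, Sec61b was higher in Notch2-11cKO. Sec61b, the β subunit of the Sec61 channel, read 9.46 and 9.81 in untreated WT arrays and 10.09, 9.67 and 9.96 in WT arrays after SRBC. It read 10.68 and 10.92 in Notch2-11cKO untreated and 10.97, 11.18 and 10.44 in Notch2-11cKO SRBC arrays. No WT array reached a Notch2-11cKO array. Sec61b rose untreated (1.17 ± 0.25, 2.24-fold, adjusted p = 0.0204) and after SRBC (0.96 ± 0.21, 1.94-fold, adjusted p = 0.0203). Its other 2 probe sets differed by 1.06 and 1.05 untreated and by 0.89 each after SRBC. The untreated call was lost on leaving out any of the 4 untreated arrays (WT untreated 1 and 2, Notch2-11cKO untreated 1 and 2; 0.99 to 1.34, adjusted p from 0.0643 to 0.211). It was also lost with quantile normalization. After SRBC the call was lost without WT SRBC 2, WT SRBC 3, Notch2-11cKO SRBC 1 or Notch2-11cKO SRBC 2 (0.80 to 0.98, adjusted p from 0.0561 to 0.0839). It was also lost with only the compared groups in the fit.

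The large channel subunit Sec61a1 read 7.60 and 7.96 in WT untreated, 7.71, 7.35 and 7.42 in WT SRBC, 8.03 and 8.51 in Notch2-11cKO untreated, and 8.02, 7.54 and 7.87 in Notch2-11cKO SRBC. Its genotypes overlapped after SRBC, and its differences were 0.49 ± 0.25 and 0.31 ± 0.20 (adjusted p = 0.421 and 0.491). Ssr1, a subunit of the translocon-associated protein complex, read 9.35 and 9.42 in WT untreated, 8.96, 9.04 and 8.98 in WT SRBC, 8.94 and 9.19 in Notch2-11cKO untreated, and 8.93, 8.51 and 9.27 in Notch2-11cKO SRBC. It was highest in the WT untreated arrays, with differences of -0.32 ± 0.24 and -0.09 ± 0.19 (adjusted p = 0.657 and 0.874). Sec24d, a cargo adaptor of COPII vesicles, was dim. It read 4.55 and 4.71 in WT untreated, 4.47, 5.0 and 4.96 in WT SRBC, 4.46 and 4.73 in Notch2-11cKO untreated, and 5.31, 5.32 and 5.62 in Notch2-11cKO SRBC. Only the Notch2-11cKO SRBC arrays stood above the rest, by 0.61 ± 0.16 over WT SRBC (adjusted p = 0.0588).

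Among the sensors 1 fell, Eif2ak3, which encodes PERK. Eif2ak3 read 7.0 and 7.18 in untreated WT arrays and 6.85, 7.71 and 7.40 in WT arrays after SRBC. It read 6.10 and 6.29 in Notch2-11cKO untreated and 5.93, 5.79 and 5.52 in Notch2-11cKO SRBC arrays. All 5 Notch2-11cKO arrays lay below all 5 WT arrays. Eif2ak3 fell after SRBC (-1.57 ± 0.22, 2.97-fold lower, adjusted p = 0.00135), and this passed in all 20 alternative analyses. The untreated difference was -0.90 ± 0.26 (adjusted p = 0.0876); it passed without WT SRBC 1 (adjusted p = 0.0194) and without both arrays that stood apart (adjusted p = 0.0055).

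Ern1, encoding IRE1, read 6.49 and 6.81 in WT untreated, 6.69, 6.96 and 7.04 in WT SRBC, 6.81 and 6.61 in Notch2-11cKO untreated, and 6.67, 6.29 and 6.86 in Notch2-11cKO SRBC. All groups overlapped, with differences of 0.06 ± 0.23 untreated and -0.29 ± 0.19 after SRBC (adjusted p = 0.97 and 0.505; 95% intervals -0.45 to 0.56 and -0.70 to 0.13). Atf6 read 8.49 and 8.66 in WT untreated, 8.17, 7.87 and 7.85 in WT SRBC, 8.30 and 8.06 in Notch2-11cKO untreated, and 8.18, 8.14 and 7.40 in Notch2-11cKO SRBC. The WT untreated arrays were highest and Notch2-11cKO SRBC 3 was lowest, and the differences were -0.40 ± 0.27 and -0.06 ± 0.22 (adjusted p = 0.613 and 0.943). Transcripts of the 3 transcription factors did not pass between genotypes, with differences from -0.37 (Atf4) to -0.10 (Xbp1) untreated and from 0.04 (Atf4) to 0.29 (Xbp1) after SRBC.

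No gene of ER-associated degradation, which returns misfolded proteins to the cytosol, passed between genotypes. By limma 1 of the 7 had an unadjusted p under 0.05 untreated and 0 after SRBC, against 14.6% and 17.4% of all genes. After SRBC all 7 differences were above 0 (median 0.18), against 45.9% of all genes. Sel1l, the scaffold of the ubiquitin ligase Hrd1 (Syvn1), read 6.88 and 6.87 in WT untreated, 7.39, 7.42 and 7.47 in WT SRBC, 7.33 and 7.39 in Notch2-11cKO untreated, and 7.74, 7.49 and 8.25 in Notch2-11cKO SRBC. It was lowest in WT untreated, and its differences by genotype were 0.49 ± 0.24 and 0.40 ± 0.19 (adjusted p = 0.39 and 0.321). Derl3, a channel component, read 4.97 and 5.17 in WT untreated, 5.12, 5.0 and 4.84 in WT SRBC, 5.18 and 4.64 in Notch2-11cKO untreated, and 5.09, 5.12 and 4.78 in Notch2-11cKO SRBC. These lie about the median of all genes (5.06), and without detection calls a transcript level cannot be told from background there, as for Trib3, Chac1, Asns and Sec24d. Syvn1, Edem1, Herpud1, Derl1 and Derl2 differed by 0.03 to 0.56 untreated and by 0.02 to 0.39 after SRBC, with adjusted p from 0.256 to 0.983. Herpud1 after SRBC, at 0.02 with all arrays, passed without both arrays that stood apart (0.57, adjusted p = 0.0224).

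The 4 outputs of the integrated stress response did not pass either. By limma 0 had an unadjusted p under 0.05 in each condition, against 14.6% and 17.4% of all genes. With only 4 genes, 0 lies near those shares and says little about this branch. Chac1, a glutathione-degrading enzyme, read 5.46 and 5.31 in WT untreated, 5.49, 4.98 and 5.21 in WT SRBC, 5.02 and 4.89 in Notch2-11cKO untreated, and 4.87, 5.30 and 5.01 in Notch2-11cKO SRBC. Trib3, a pseudokinase induced by ATF4 and CHOP, read 5.08 and 5.10 in WT untreated, 4.91, 5.04 and 4.82 in WT SRBC, 5.18 and 4.99 in Notch2-11cKO untreated, and 5.20, 5.04 and 4.94 in Notch2-11cKO SRBC. Both were dim. Chac1 was highest in WT SRBC 1 and the untreated WT arrays, and the untreated genotypes did not overlap (-0.43 ± 0.20, adjusted p = 0.347). The phosphatase subunit Ppp1r15a, which reverses the phosphorylation of eIF2α, differed by -0.20 ± 0.32 and -0.01 ± 0.26, and Asns, asparagine synthetase, by -0.09 ± 0.18 and 0.13 ± 0.15.

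**Figure D4:**
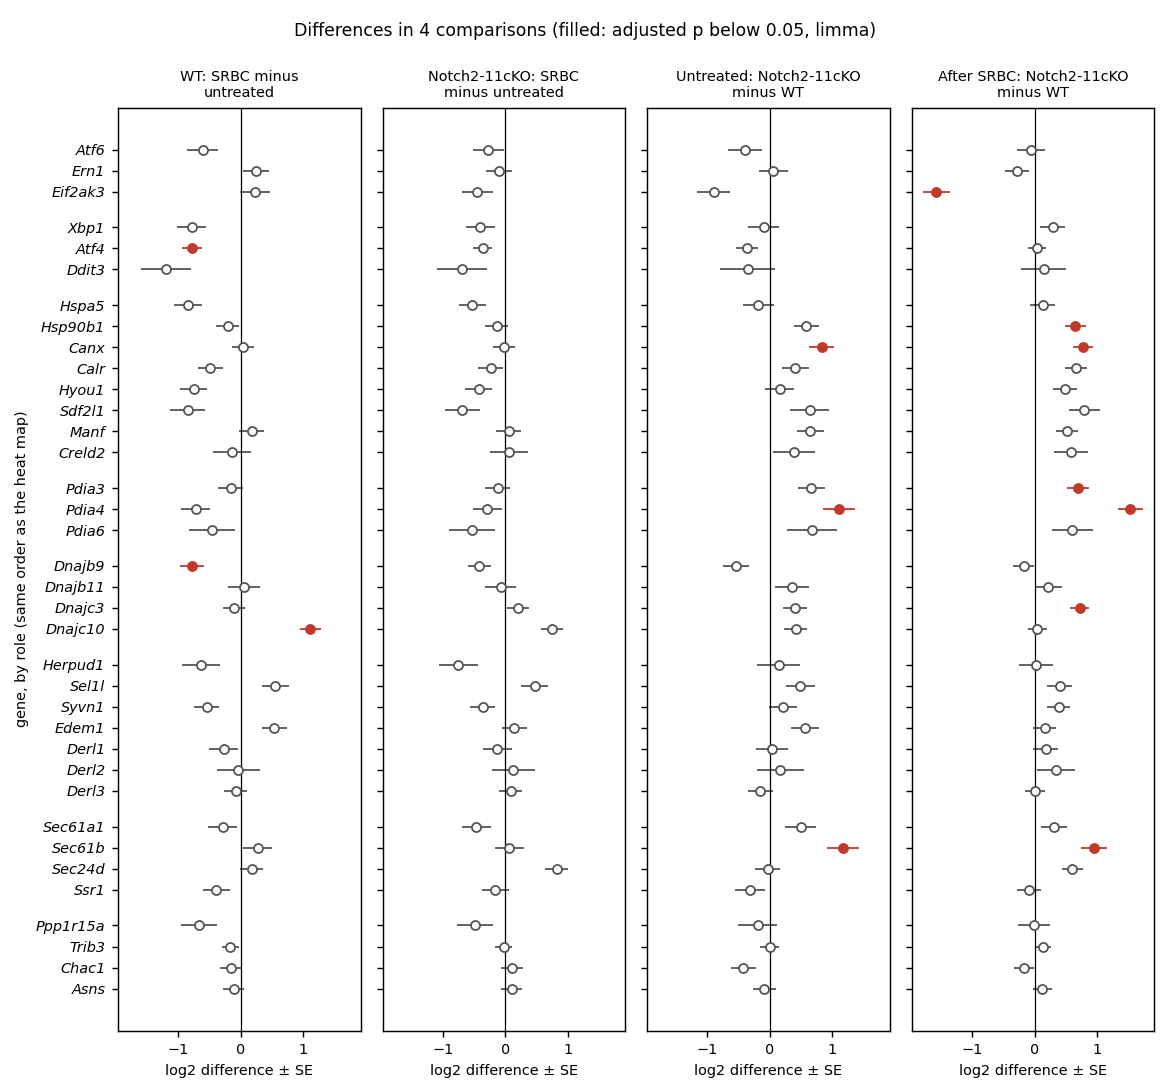
Log2 differences ± SE (horizontal axes) for the 36 genes, ordered by role, in 4 comparisons (panels), with filled red points where limma's adjusted p was below 0.05. After SRBC the chaperone and isomerase points lie to the right of 0 in Notch2-11cKO relative to WT, with Eif2ak3 alone far to the left at -1.57.

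Set beside the promoter elements, the 11 genes with an exact ERSE or ERSE-II had a median difference by genotype of 0.38 untreated and 0.58 after SRBC. The 20 with a window and no exact match of either had -0.02 and 0.14. After SRBC 11 of the 11 differences were above 0 with an element and 14 of the 20 without, against 45.9% of all genes. Of the genes past the threshold after SRBC, 3 had an exact match (Hsp90b1, Canx, Dnajc3) and 4 had none (Pdia4, Pdia3, Sec61b, Eif2ak3). In the responses to SRBC the medians with and without an element were -0.21 and -0.16 in WT and -0.14 and -0.11 in Notch2-11cKO. The split by element overlaps with that by role, since most lumenal chaperones with a window held an ERSE and no sensor, transcription factor or integrated stress response output did. It is thus not separate from the differences by role. These are descriptions and were not tested.

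Other genes of the pathway, 153 measured in 8 lists on folding, N-glycosylation, degradation, translocation, vesicle transport, regulators, ATF4 and CHOP targets and IRE1-degraded mRNAs, were read for comparison. Untreated, 12 rose and 3 fell (7.84% higher, against 2.95% of all genes), and after SRBC 16 rose and 3 fell (10.5% higher, against 3.36%). Their median differences were 0.18 and 0.19. The lists of N-glycosylation and of the translocon held 7 of the 16 that rose after SRBC. Rpn1, a subunit of the oligosaccharyltransferase that attaches N-glycans, rose by 1.08 ± 0.27 untreated (adjusted p = 0.0398) and 1.27 ± 0.22 after SRBC (adjusted p = 0.0054). Dpagt1, which makes the starting lipid-linked sugar, rose by 1.02 ± 0.23 and 1.17 ± 0.18, and Ddost, another transferase subunit, by 0.80 ± 0.16 after SRBC. Ssr2 and Ssr3, partners of Ssr1, rose by 0.88 ± 0.22 and 0.92 ± 0.21 untreated and by 1.07 ± 0.18 and 1.06 ± 0.17 after SRBC. Tram1, a translocon protein, rose by 0.76 ± 0.14 after SRBC.

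In the folding list the isomerase P4hb (0.98 ± 0.19), the prolyl isomerase Fkbp2 (0.96 ± 0.19) and the thioredoxin-like Erp29 (0.68 ± 0.17) rose after SRBC. In vesicle transport the cargo receptor Lman1 (1.16 ± 0.19), Bet1 (0.85 ± 0.21) and Tmed10 (0.63 ± 0.16) rose after SRBC, and the retrieval receptor Kdelr1 (1.30 ± 0.31) and Tmed10 (0.84 ± 0.20) rose untreated. In the degradation list the EDEM-family Edem2 rose after SRBC (0.65 ± 0.16) and the lectin Erlec1 untreated (0.88 ± 0.21). Among regulators Map3k5, the stress kinase ASK1, fell untreated (-1.09 ± 0.24) and after SRBC (-0.87 ± 0.20). ATF4 and CHOP targets went both ways: after SRBC Nupr1 (2.01 ± 0.29) and Wars (0.77 ± 0.19) rose while Eprs (-1.02 ± 0.20) and Slc7a1 (-0.73 ± 0.17) fell. None of 9 mRNAs known to be cut by IRE1 passed by limma in any comparison, with at most 1 at an unadjusted p under 0.05. Over all genes, 6.47% to 17.4% had such a p in these comparisons.

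Markers of other cells differed with genotype in the same arrays. Of 9 measured monocyte markers, 5 rose and 1 fell untreated and 5 rose after SRBC, and their mean log2 level was 7.11 to 7.18 in WT untreated, 8.69 to 8.79 in Notch2-11cKO untreated, 7.06 to 7.29 in WT SRBC and 8.54 to 8.93 in Notch2-11cKO SRBC. Of 13 macrophage markers 7 rose untreated and 6 after SRBC, with levels of 5.33 to 5.52, 6.57 to 6.95, 6.15 to 6.59 and 6.96 to 7.31 in the same order. The plasmacytoid dendritic cell list had 2 and 3 of 9 higher, and the cDC1 list 4 of 10 higher and 1 lower untreated and 3 higher and 2 lower after SRBC. Of 11 B cell markers 3 and 2 fell, and of 11 neutrophil markers 1 and 2 rose. T cell markers fell in 1 of 8 each time, NK cell markers in 0 and 1 of 8, and erythroid markers in 0 of 5 (by limma, 0 and 3 NK cell and 0 and 1 erythroid markers at an unadjusted p under 0.05). Cytosolic heat shock genes were below 0 for 13 of 15 untreated (median -0.33, 1 rose and 1 fell) and above 0 for 15 of 15 after SRBC (median 0.46, 2 rose). The plasma cell list, from the cells richest in these chaperones, had 0 of 12 past the threshold by genotype. By limma 2 and 4 had an unadjusted p under 0.05, against 14.6% and 17.4% of all genes. The mean log2 level of this list was 5.47 to 5.81 over all arrays. Single markers of this list differed by genotype from -1.49 to 0.89 untreated and from -1.02 to 0.91 after SRBC. No intensity was at 0. The part of these cell types and of the heat shock genes in the chaperone differences was not tested.

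The response of WT cDC2 to SRBC was compared within WT, 3 arrays against 2; it shares the WT untreated arrays with the untreated genotype comparison. Of the 36 genes 1 rose (against 1.82% of all genes) and 2 fell (against 1.97%). Dnajc10 rose, and the transcription factor Atf4 and the BiP cofactor Dnajb9 fell. At an unadjusted p under 0.05, 15 of the 36 differed, against 16.8% of all genes. The median difference was -0.19, against 0.02 for all genes, and 10 of 36 were above 0. Every SRBC array lay below every untreated array for 14 of the 36 (against 15.7% of all genes) and above for 3 (against 17.8%). The count of 3 became 0 without WT untreated 1 or WT untreated 2, 1 without WT SRBC 2 or WT SRBC 3, 5 without WT SRBC 1 or Notch2-11cKO SRBC 3, and 10 (2 higher and 8 lower, with 2300 of all genes called) without both of the latter arrays. With quantile normalization 1 rose and 1 fell, with 761 of all genes called.

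Dnajc10, a reductase that helps to open disulfides of proteins bound for degradation, read 6.16 and 6.07 in untreated WT and 7.40, 7.14 and 7.14 in WT after SRBC. It read 6.46 and 6.59 in Notch2-11cKO untreated and 7.17, 7.23 and 7.41 in Notch2-11cKO SRBC. Untreated and SRBC arrays did not overlap in either genotype. Dnajc10 rose by 1.11 ± 0.17 in WT (2.16-fold, adjusted p = 0.00494), and the difference in Notch2-11cKO was 0.75 ± 0.17 (adjusted p = 0.112). In WT it did not pass without WT untreated 1 (1.16, adjusted p = 0.0726) or WT untreated 2 (1.07, adjusted p = 0.0681).

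Atf4 read 9.66 and 9.47 in WT untreated, 8.78, 8.86 and 8.73 in WT SRBC, 9.25 and 9.13 in Notch2-11cKO untreated, and 8.86, 8.78 and 8.84 in Notch2-11cKO SRBC. The SRBC arrays of both genotypes were alike in level and below all untreated arrays. Atf4 fell in WT (-0.78 ± 0.16, 1.71-fold lower, adjusted p = 0.0227), and the difference in Notch2-11cKO was -0.37 ± 0.16 (adjusted p = 0.475). The WT call did not hold without WT untreated 1, WT untreated 2, WT SRBC 2 or WT SRBC 3 (-0.87 to -0.68, adjusted p from 0.0563 to 0.262). It was also lost with only the compared groups in the fit. Dnajb9, an XBP1 target that holds IRE1 inactive together with BiP, read 9.81 and 9.81 in WT untreated, 9.02, 9.04 and 9.02 in WT SRBC, 9.53 and 9.01 in Notch2-11cKO untreated, and 9.01, 8.74 and 8.81 in Notch2-11cKO SRBC. The WT arrays were tightly grouped, and the untreated Notch2-11cKO arrays reached from near the WT untreated to the SRBC level. Dnajb9 fell in WT (-0.78 ± 0.19, 1.72-fold lower, adjusted p = 0.043), with -0.42 ± 0.19 in Notch2-11cKO (adjusted p = 0.496). It did not pass without WT untreated 1, WT untreated 2, WT SRBC 2, WT SRBC 3 or Notch2-11cKO SRBC 1 (-0.79 to -0.78, adjusted p from 0.0575 to 0.288), nor with quantile normalization (-0.71, adjusted p = 0.064) or with a block for the replicate number (-0.77, adjusted p = 0.0553).

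Hspa5, the gene of BiP, read 11.18 and 11.25 in WT untreated, 10.24, 10.46 and 10.42 in WT SRBC, 10.99 and 11.07 in Notch2-11cKO untreated, and 10.62, 10 and 10.88 in Notch2-11cKO SRBC. All SRBC arrays lay below all untreated arrays. The differences were -0.84 ± 0.22 in WT (adjusted p = 0.0597) and -0.53 ± 0.22 in Notch2-11cKO (adjusted p = 0.448), and the WT difference passed in 7 of 20 alternative analyses, among them without both arrays that stood apart (-0.78, adjusted p = 0.0135). Its exchange factor Hyou1 differed by -0.76 ± 0.21 in WT (adjusted p = 0.0809). Sdf2l1 differed by -0.85 ± 0.28 in WT (adjusted p = 0.135), and without WT SRBC 1 by -1.18 (adjusted p = 0.00481).

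**Figure D5:**
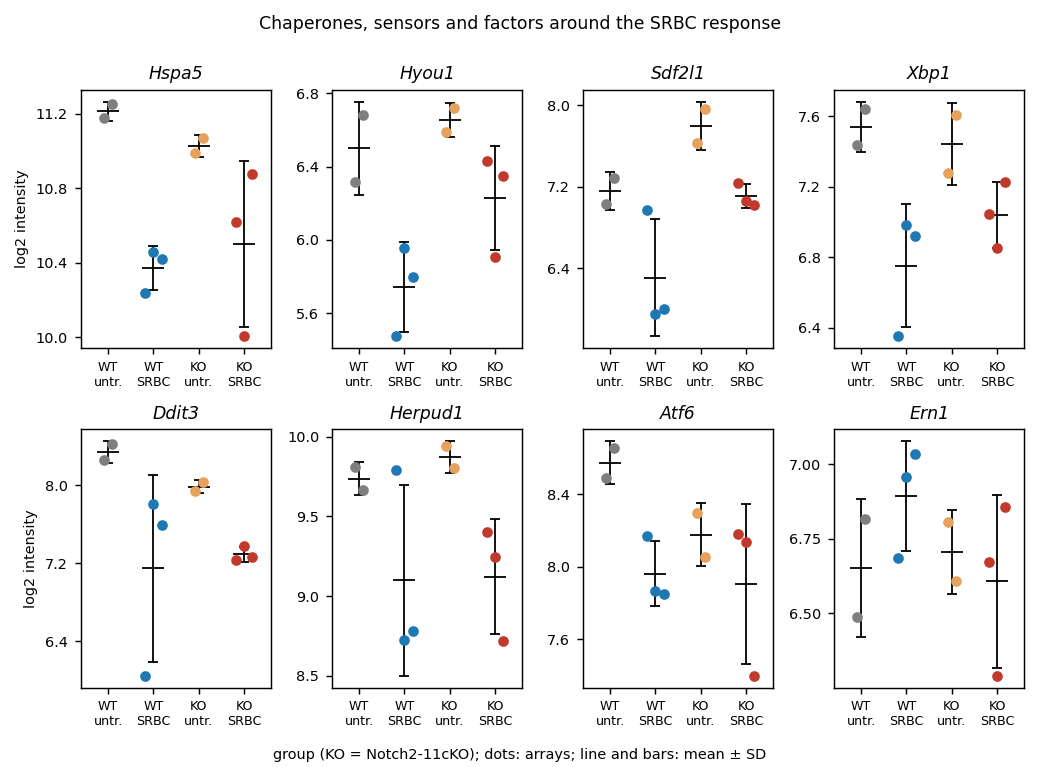
Log2 intensity by array for 8 genes around the SRBC response, with dots for arrays and a line and bars for mean ± SD (n = 2 untreated, n = 3 SRBC), each panel on its own axis that does not start at 0. Hspa5 is lower in all SRBC arrays of both genotypes, and WT SRBC 1 lies away from the other WT SRBC arrays for Ddit3, Sdf2l1 and Herpud1.

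Xbp1 read 7.44 and 7.64 in WT untreated, 6.35, 6.99 and 6.92 in WT SRBC, 7.28 and 7.61 in Notch2-11cKO untreated, and 7.05, 6.85 and 7.23 in Notch2-11cKO SRBC. SRBC arrays were lower without overlap in each genotype, by -0.79 ± 0.23 in WT and -0.40 ± 0.23 in Notch2-11cKO (adjusted p = 0.0868 and 0.618). Ddit3, encoding CHOP, read 8.26 and 8.42 in WT untreated, 6.04, 7.81 and 7.59 in WT SRBC, 7.94 and 8.03 in Notch2-11cKO untreated, and 7.24, 7.38 and 7.26 in Notch2-11cKO SRBC. WT SRBC 1 was far below all other arrays, which gave Ddit3 the widest range of the 36 genes (2.38). Its differences were -1.19 ± 0.40 in WT and -0.69 ± 0.40 in Notch2-11cKO (adjusted p = 0.142 and 0.629), and without both arrays that stood apart -0.64 in WT (adjusted p = 0.0241).

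Herpud1, a membrane protein of the Hrd1 complex, read 9.81 and 9.66 in WT untreated, 9.79, 8.72 and 8.78 in WT SRBC, 9.94 and 9.80 in Notch2-11cKO untreated, and 9.40, 9.25 and 8.72 in Notch2-11cKO SRBC. WT SRBC 1 was at the untreated level while the other WT SRBC arrays were lower, and the difference of -0.64 ± 0.31 (adjusted p = 0.33) became -0.99 without WT SRBC 1 (adjusted p = 0.0233). Sel1l and Edem1, of the same degradation route, differed the other way, by 0.55 ± 0.22 and 0.54 ± 0.20 (adjusted p = 0.213 and 0.197), with no overlap, and Sel1l passed without both arrays that stood apart (0.57, adjusted p = 0.038). Ppp1r15a differed by -0.67 ± 0.29 and Atf6 by -0.61 ± 0.25 (adjusted p = 0.263 and 0.228), and both passed without those arrays (-0.66 and -0.72, adjusted p = 0.022 and 0.0122). Sensors Ern1 and Eif2ak3 differed by 0.24 ± 0.21 and 0.22 ± 0.24 (adjusted p = 0.64 and 0.715).

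In Notch2-11cKO cDC2, 0 of the 36 genes passed after SRBC by limma in either direction, against 0.140% of all genes higher and 0.166% lower, and 7 had an unadjusted p under 0.05, against 10% of all genes. Without both arrays that stood apart 3 passed (398 of all genes): Dnajc10 (0.68, adjusted p = 0.0485), Sec24d (0.72, adjusted p = 0.0329) and Ppp1r15a (-0.83, adjusted p = 0.0253). Without WT SRBC 1 alone, Sec24d passed (0.82, adjusted p = 0.0353). The median difference was -0.13, against 0.03 for all genes, and 12 of 36 were above 0. Every SRBC array lay below every untreated array for 10 of the 36 (against 12.2% of all genes) and above for 3 (against 16.1%), namely Dnajc10, Sel1l and Sec24d. Sec24d had the largest positive difference (0.82 ± 0.18, adjusted p = 0.105) and Herpud1 the largest negative (-0.75 ± 0.31, adjusted p = 0.443).

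Whether the response differed by genotype was tested by the interaction, the Notch2-11cKO response minus the WT response. By limma 0 of the 36 genes passed, against 0.0100% of all genes higher and 0.0100% lower, and 1 had an unadjusted p under 0.05, against 6.47% of all genes. Without both arrays that stood apart 604 of the 19938 genes passed in place of 4, and 0 of the 36. At so small a share, 0 of 36 does not show that these genes lack such a difference. The gene with the unadjusted p under 0.05 was Sec24d (0.64 ± 0.26, adjusted p = 0.706). The interactions of Eif2ak3 and Atf4 were -0.67 ± 0.34 and 0.41 ± 0.22 (adjusted p = 0.817 and 0.852). The median over the 36 was 0.17, with 24 above 0, against 0.01 for all genes. A call in WT and none in Notch2-11cKO was thus not shown to be a difference between them.

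Few other pathway genes passed with SRBC. In WT 2 of the 153 rose and 3 fell, and in Notch2-11cKO 0 passed by limma. At an unadjusted p under 0.05, 21 differed in Notch2-11cKO, against 10% of all genes. The cystine transporter Slc7a11 rose by 2.38 ± 0.48 in WT (5.21-fold, adjusted p = 0.0205) and the tRNA synthetase Eprs by 1.51 ± 0.22 (adjusted p = 0.00407), both from the list of ATF4 and CHOP targets, while Slc7a5, an amino acid transporter of that list, fell (-0.95 ± 0.16, adjusted p = 0.00816). Bak1 (-0.99 ± 0.22) and Ubac2 (-0.90 ± 0.21) also fell. Cytosolic heat shock genes changed in the same arrays: 10 of 15 fell in WT, with mean log2 levels of 9.45 to 9.62 untreated and 7.84 to 7.95 after SRBC, and 2 of 15 fell in Notch2-11cKO, with 9.04 to 9.42 and 8.31 to 8.54. Immediate-early and dissociation genes fell in 4 of 22 in WT (9.42 to 9.53, then 8.42 to 8.87) and 2 of 22 in Notch2-11cKO (9.51 to 9.53, then 8.42 to 9.16). Markers of other cells also changed with SRBC. In WT 4 of 13 macrophage markers rose, 3 of 10 cDC1 markers rose and 1 fell, and 2 of 11 B cell markers fell. Of erythroid markers 1 of 5 rose in WT, as did 1 of 12 plasma cell, 1 of 9 monocyte and 1 of 11 neutrophil markers. No plasmacytoid dendritic cell, T cell or NK cell marker passed in WT by limma (0, 0 and 3 at an unadjusted p under 0.05). In Notch2-11cKO 1 of 11 neutrophil markers rose, and no other marker of these cell lists passed. The part of these in the SRBC differences of the ER genes was not tested.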

How the data were processed

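The authors deposited normalized intensity values on a linear scale for 28853 probe sets on 10 arrays; how they normalized them is not stated in the labels or the value table. Per the labels' protocols, biotin-labelled targets were made from total RNA with the Ambion WT Expression kit. The deposited intensities were turned into log2 values here. Of the probe sets 21789 listed 1 gene symbol, 1621 several and 5443 none, and the brightest probe set stood for each gene, with no filter on dim genes and no detection calls. limma (lmFit, eBayes with a mean-variance trend) fitted a mean for each of 4 groups, with 6 residual degrees of freedom, and gave 5 two-sided comparisons, adjusted by Benjamini-Hochberg over 19938 genes. The fit was tested on simulated data.

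The genes, lists and tests were chosen with earlier results of these data known. Given array by array were genes past the threshold, sensors, transcription factors and, per role, those with the smallest and largest average p; Hspa5, Herpud1 and Sec24d were added after their values were seen. Of each list of other genes, up to 3 with the smallest adjusted p in a comparison were named. Alternatives were other probe set summaries, a filter on dim genes, quantile normalization, centring, other variance models, array weights, fits of only the compared groups, a block for the replicate number, and leaving out arrays. Software was Python 3.11.15 with matplotlib 3.10.9, pandas 2.3.3 and NumPy 2.4.6, and R 4.3.3 with limma 3.58.1.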

Additional observations from a re-analysis of the deposited data

How the results depend on the processing

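Over 3544 values under 20 alternatives, 3430 kept their side of the threshold, 64 lost a call and 50 gained one. No called difference changed sign, whereas 139 of the 3430, all below the threshold in both analyses, did. Counts of genes past the threshold, of 36, are given here. For the WT SRBC response they were 3 (756 of all genes) in the main fit. They were 8 (1886 of all genes) with array weights and 10 (2300) without both arrays that stood apart. For the Notch2-11cKO SRBC response they were 0 (61 of all genes) in the main fit and 1 (103) without a mean-variance trend. They were 2 (267 of all genes) with array weights and 3 (398) without both arrays. Between untreated genotypes they were 3 (1019 of all genes) in the main fit, 6 (1822) with array weights and 8 (1996) without both arrays. With only the groups compared they were 6 (5 higher, 1 lower, with 1966 of all genes called). After SRBC between genotypes they were 7 (1061 of all genes) in the main fit. Of these 2 were left with only the groups compared (627 of all genes), and 5 with arrays centred on their medians (1043). Leaving out 1 array at a time gave 0 to 5, 0 to 1, 0 to 4 and 2 to 6 in these comparisons, and 0 in the interaction under all alternatives run. Leaving out arrays also makes the groups smaller, and the cause of these changes was not tested. The replicate number as a block gave 3, 0, 3, 8 and 0 calls over the 5 comparisons (715, 50, 1175, 1319 and 6 of all genes). Dnajb9 was lost and Hspa5 gained in the WT response, and Sec24d was gained after SRBC. Deviations of same-numbered SRBC arrays of the 2 genotypes had r = 0.479 (replicate 1), -0.218 (replicate 2) and 0.403 (replicate 3). Arrays of unlike numbers were not compared, so these values cannot decide whether the numbers mark a shared batch. The main fit did not pair samples by number. Groups of 2 arrays, no detection calls and an unknown normalization limit all values.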
